A study of Homo sapiens with 12 samples.

Results

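The comparison described here is between WM35 cells held in ciclopirox for 24 h and WM35 cells held in ciclopirox for 8 h. Its members are the 5 arrays whose titles name ciclopirox, 3 at 8 h and 2 at 24 h, out of 12 arrays in the series. WM35 is an established human cell line from a primary melanoma, and ciclopirox is an antifungal hydroxypyridone that binds iron. All cells were grown in RPMI medium with 5% serum and antibiotics and were plated overnight before treatment. Ciclopirox was used at the dose that inhibits growth by 75%, a dose that had been set in an assay of 72 h, and no concentration is stated in the labels. The remaining arrays hold 2 controls given the vehicle DMSO, 5 arrays of crizotinib, 3 from the early and 2 from the late time, at its own 75% inhibitory dose. Crizotinib is an inhibitor of the MET and ALK receptor tyrosine kinases. The controls carry no time in their titles, so they enter no difference here, and their levels are given beside those of ciclopirox only to place them. Without a control at each time, longer exposure to the drug and longer culture cannot be told apart.

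Each array measured RNA from bulk cultures with an Illumina expression BeadChip, from 300 ng of total RNA. Whether the arrays of a title hold RNA of separate cultures is not in the labels. The p-values therefore rest on a spread between arrays that may be only technical. The 12 arrays lay on 1 chip, and each title filled consecutive positions on it, so time and chip position cannot be told apart. The arrays detected 15561 to 17106 probes each at a detection p-value under 0.01. Of 16 melanocyte markers on the array, 4 were detected on all 5 ciclopirox arrays and 9 on none. The melanocyte factor SOX10 was well above background on all 5 ciclopirox arrays, at a mean log2 level of 11.27. The pigment genes PMEL, TYR, TYRP1 and MLANA and the melanocyte marker S100B were not detected on any of the 5. Of the markers of other cell types on the array, 0 of 4 for keratinocytes and 0 of 5 for endothelium were detected on any of these arrays. The fibroblast marker LUM was detected on the 3 arrays at 8 h and on neither at 24 h, and 0 of 6 fibroblast markers were detected on all 5. Of 6 leukocyte markers CD74, which other cells can also express, was detected on all 5 arrays and CD14 on 2 at 8 h, and PTPRC, the defining marker, on none. The summed linear signal of the 6 fibroblast markers ranged from 168 to 182 at 8 h and from 144 to 157 at 24 h, and that of the leukocyte markers from 345 to 381 and from 301 to 324. The part of either in the results was not tested.

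The deposited tables disagreed on which array carries which title, and this decides every result below. One table holds scanner signals by chip position, and the description of each sample names a position. The other table holds processed values under each sample's own record. The probe-centred log2 values of the record table matched 1 position each, with r between 0.941 and 0.976 over 12599 probes detected on all arrays, while no other position reached more than 0.672. The matched position was the one named in the description for 2 of 12 samples, both controls, and another one for the other 10. By the records, the ciclopirox samples matched positions J, K and L at 8 h and E and F at 24 h, where the descriptions name C, D and E at 8 h and F and G at 24 h. Of the ciclopirox positions only E and F occur in both assignments, and E changes its time between them.

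The results below use the values deposited under each sample's own record. With those, all 12 arrays correlated best with an array of their own title, and the mean r of 9 same-title pairs was 0.468 against -0.161 for pairs of different titles. At the described positions this held for 6 of 12 arrays, and the means were 0.201 and -0.116. These correlations describe the arrays and carry no test. At the described positions the same fit called 0 of 17052 probes (0.0%) between 24 h and 8 h with limma, against 2513 at an unadjusted p under 0.05. The median difference at the described positions is given below beside each gene group. No other source was at hand to settle which assignment is right.

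**Figure D1:**
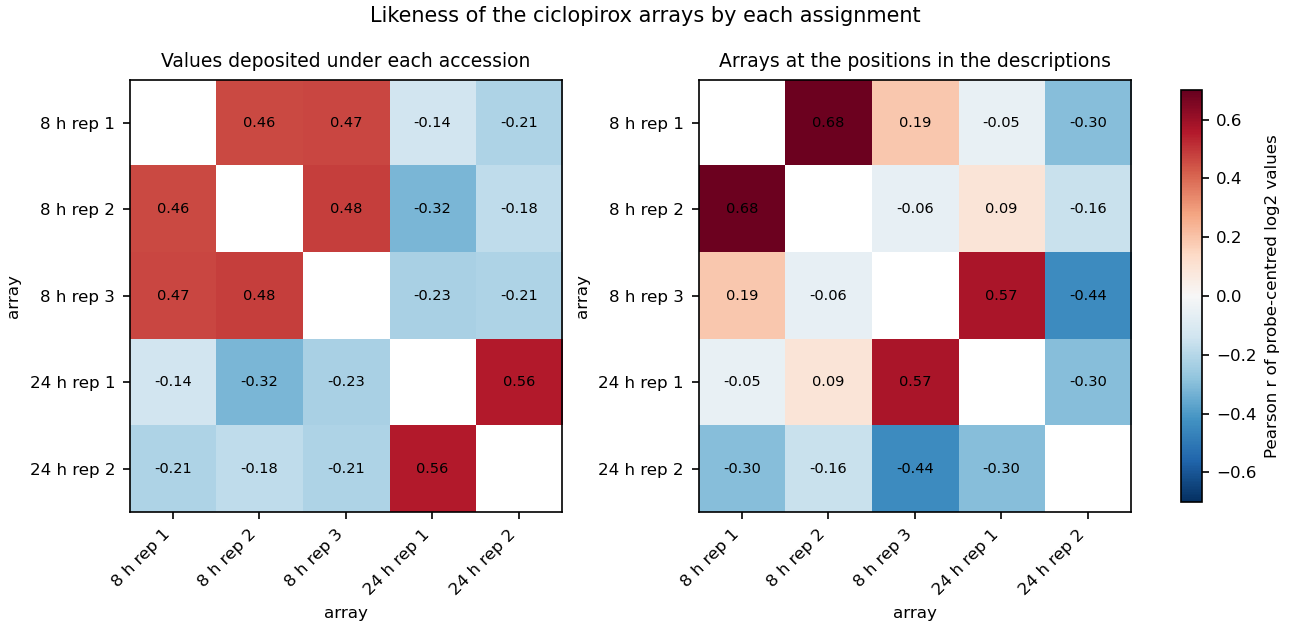
Heat maps of Pearson's r between probe-centred log2 values of the 5 ciclopirox arrays, on the left by the values deposited under each sample's record and on the right by the chip positions in the descriptions. On the left the 3 arrays at 8 h correlate with each other at 0.46 to 0.48 and the 2 at 24 h at 0.56, and every pair across the times is below 0. On the right the 2 arrays titled 24 h correlate at -0.30.

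Iron bound by a chelator is taken from enzymes that need it, among them ribonucleotide reductase, which makes the building blocks of DNA, and the prolyl hydroxylases that mark the hypoxia-inducible factors (HIF) for destruction. Cells short of iron are known to stabilise HIF and to stop dividing. A separate alarm, the integrated stress response, raises the translation of the transcription factor ATF4, which switches on genes for amino acid supply and for coping with or dying from stress. The p53 pathway, by contrast, answers DNA damage and blocked replication with inhibitors of the cell cycle.

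Between 8 h and 24 h in ciclopirox, genes of the integrated stress response and of the p53 pathway rose, early response genes such as FOS and EGR1 rose, and heat shock and mitotic genes fell. The largest rise was that of GDF15, a secreted stress cytokine, at 24.4-fold. Of 14884 probes detected on at least 2 of the 5 arrays, 2866 (19.3%) passed an adjusted p of 0.05 in limma, 1618 (10.9%) higher and 1248 (8.38%) lower at 24 h. Called probes that moved at least 2-fold were 171 higher and 42 lower, so the larger changes were mostly rises. With 1 probe kept per gene, 2039 of 9577 genes (21.3%) were called, 1188 (12.4%) higher and 851 (8.89%) lower, and the median difference of all genes was 0.011 on the log2 scale. These percentages are the background against which each group count below is read. In bulk RNA a change in the share of cells that express a gene and a change in RNA per cell cannot be told apart.

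The number of calls leaned on the 24 h arrays. Without 24 h replicate 1 it was 1319, and without 24 h replicate 2 it was 1850. Of these, 1190 and 1549 were among the 2866, all in the same direction. Pairs of arrays within 8 h differed by a root mean square of 0.261 to 0.268 log2 units and the pair at 24 h by 0.302, while pairs across the times differed by 0.406 to 0.461. Centring scanner signals on the median in place of quantile normalization moved the median of all probes up by about 0.1, with 2683 probes higher and 714 lower. Groups whose median changes sign under that scaling are named below.

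**Figure D2:**
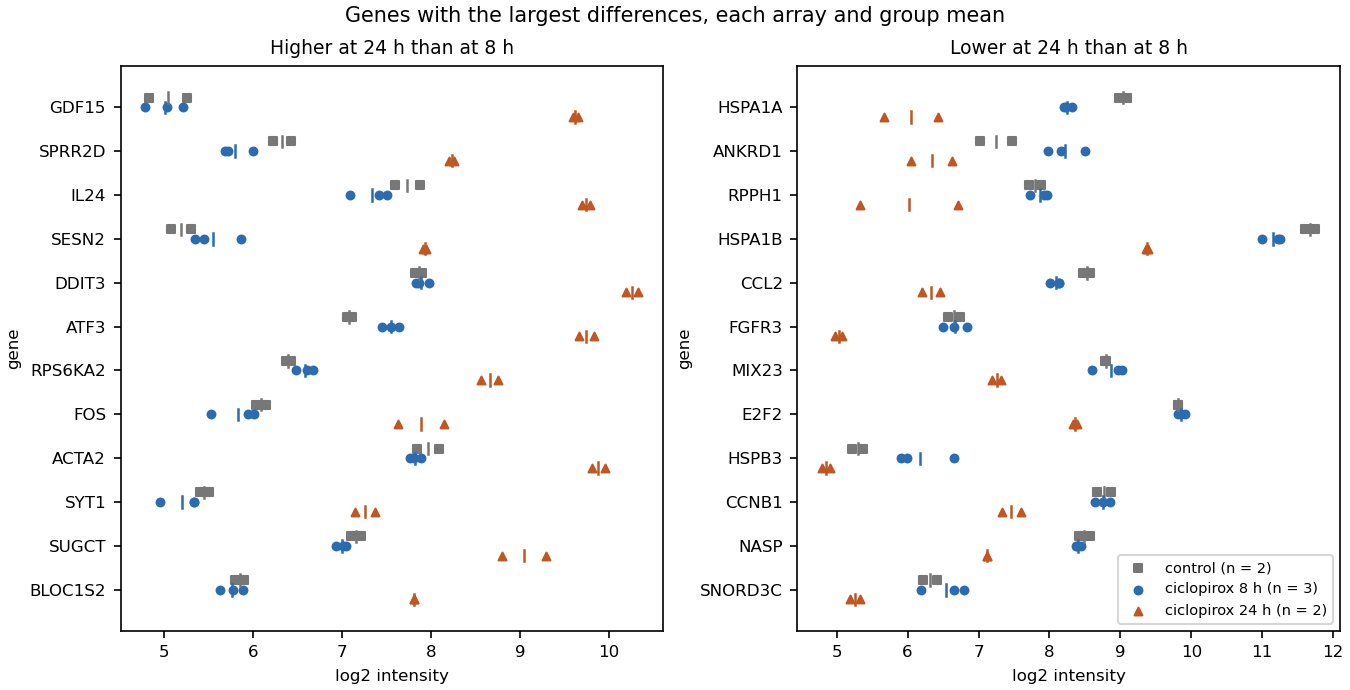
Log2 intensity on each array for the 12 genes with the largest rises (left) and the 12 with the largest falls (right) from 8 h to 24 h in ciclopirox, with controls shown for level. Points are arrays and short bars are group means. The values of the 2 times do not overlap for any gene shown, which the choice of genes required.

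All 19 genes of the integrated stress response list were measured, and 16 rose and 0 fell between 8 h and 24 h, against 12.4% and 8.89% of all genes. Their median difference was 1.24 on the log2 scale, where that of all genes was 0.011. The remaining 3, ATF4 itself, the amino acid transporter chain SLC3A2 and the lipoprotein receptor VLDLR, differed by 0.37, 0.17 and 0.16 and did not pass the test, and another kept probe of ATF4 had a difference of the opposite sign. CHAC1, described below, is counted among the 16, although its probe passed the detection filter only through the 24 h arrays. At the described chip positions the list had a median of 0.24 and 0 calls. Without 24 h replicate 1 the count was 14 of 18, and without 24 h replicate 2 it was 15 of 18. With detection required on all 5 ciclopirox arrays, 15 of 17 rose, with a median of 1.11.

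GDF15 lay at 5.21, 5.03 and 4.79 on the arrays at 8 h and at 9.59 and 9.65 at 24 h, and the controls at 4.83 and 5.25. The 8 h values overlapped those of the controls and were near the detection limit, with 2 of 3 arrays detected. The difference was 4.61 ± 0.16 (SE), with an adjusted p of 2.24e-07. DDIT3, which encodes the pro-death factor CHOP, rose from 7.83, 7.98 and 7.87 to 10.33 and 10.19, a 5.16-fold difference (adjusted p = 3.5e-07, limma). The controls, at 7.89 and 7.82, lay close to its 8 h values. ATF3, a transcription factor of the same pathway, rose from 7.45, 7.64 and 7.55 to 9.83 and 9.66, a 4.59-fold difference. Here the 8 h arrays already lay above both controls, at 7.06 and 7.11.

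SESN2, a stress-induced restrainer of the growth kinase mTORC1, rose 5.18-fold, from a mean log2 level of 5.55 to 7.93. CHAC1, which degrades glutathione, was not detected on any array at 8 h and was detected on both at 24 h, a rise of at least 2.29-fold. TRIB3, a pseudokinase that damps the pathway, rose 2.36-fold and PPP1R15A, which ends the translational block, 2.96-fold. Enzymes and carriers of amino acid supply rose as well. ASNS, asparagine synthetase, went from 12.40, 12.24 and 12.39 to 13.78 and 13.66, a 2.6-fold rise, with controls at 11.98 and 11.99. The serine pathway enzymes PHGDH, PSAT1 and SHMT2 rose 1.77-, 1.96- and 1.52-fold, the folate enzyme MTHFD2 1.55-fold and the cystathionine lyase CTH 3.31-fold. The median deviation of the list lay at -0.47, -0.49 and -0.46 on the 8 h arrays, at 0.69 and 0.77 at 24 h, and at -0.89 and -0.91 on the controls. So the 8 h arrays lay between the controls and the 24 h arrays, a statement of level without a test.

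The promoter of ATF3 is shown because the amino acid response element bound by ATF4, TGATGNAA on either strand, occurs in it. It covers chr1:212565157-212565456 of GRCh38.p14 on the plus strand, 250 bases before to 50 after the RefSeq start, and the capitals mark the match, 191 bases before the start.
ATF3: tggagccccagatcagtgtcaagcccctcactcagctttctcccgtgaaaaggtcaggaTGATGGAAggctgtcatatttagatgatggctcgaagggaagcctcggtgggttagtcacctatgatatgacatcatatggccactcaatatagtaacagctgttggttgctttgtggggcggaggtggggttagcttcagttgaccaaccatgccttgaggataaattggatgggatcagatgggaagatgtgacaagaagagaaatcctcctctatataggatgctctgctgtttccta
The motif was present in a promoter of 4 of 17 list genes with a RefSeq promoter, ASNS, ATF3, CHAC1 and SLC3A2. It was present in a promoter of 4.46% of all 27305 genes and of 2.75% of the 7820 tested genes.

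**Figure D3:**
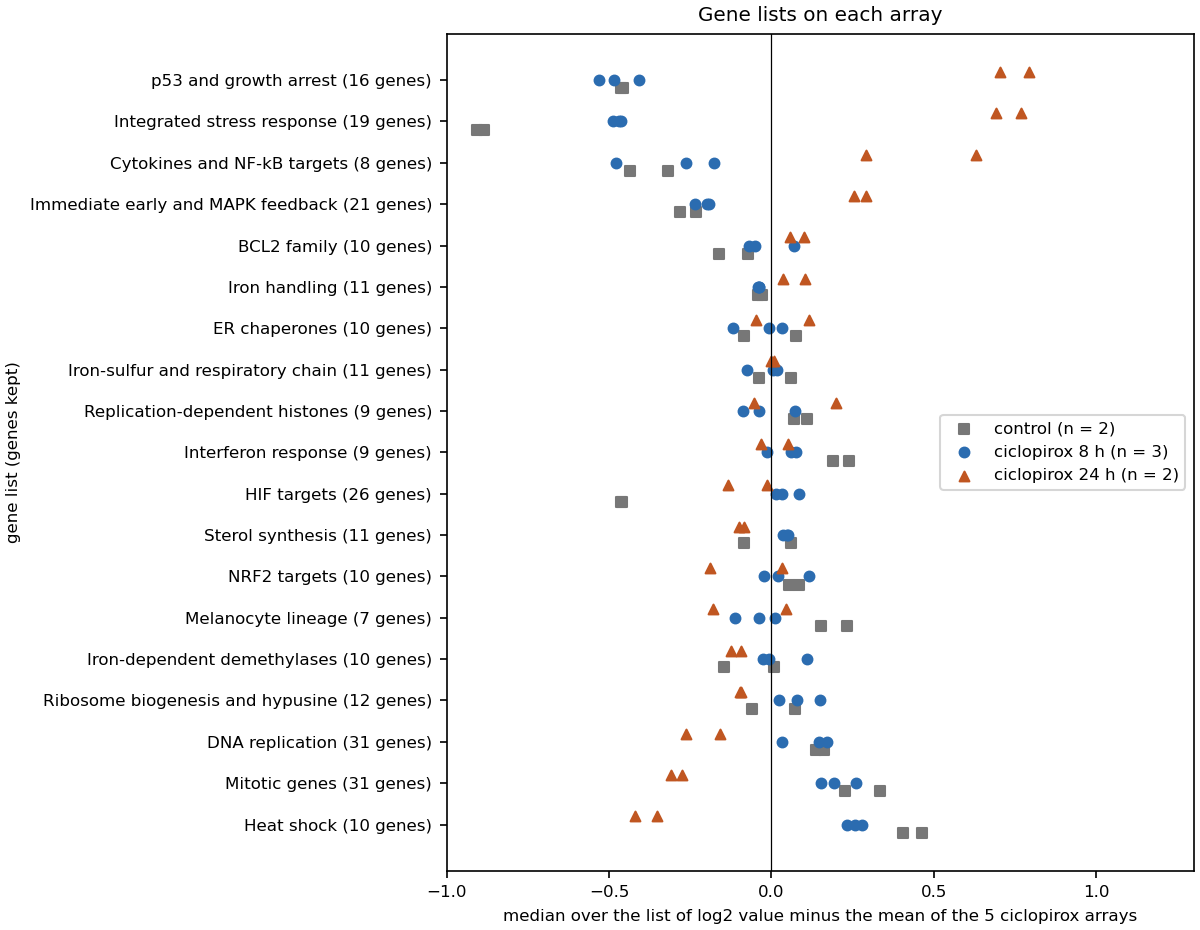
For each of 19 gene lists, the median over its measured genes of the log2 value minus the mean of the 5 ciclopirox arrays, drawn per array, with lists ordered by their median difference between 24 h and 8 h. The 2 arrays at 24 h lie to the right of the 3 at 8 h for the stress response and p53 lists and to the left for the heat shock, mitotic and replication lists. For the stress response and HIF lists the controls lie to the left of all 5 ciclopirox arrays.

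Of 10 measured genes for endoplasmic reticulum chaperones and their regulators, 3 rose and 0 fell, with a median of 0.035, which turned to -0.011 with replicate number as a block and to -0.002 with scanner signals at a larger offset. XBP1, a transcription factor of the unfolded protein response, rose from 11.24, 10.96 and 11.09 to 12.15 and 11.90 (1.91-fold), and the co-chaperone DNAJB9 rose 2.09-fold. EDEM1, which helps clear misfolded proteins, rose by 0.37, and its call was lost without any 1 of the 8 h arrays or without 24 h replicate 1 (adjusted p = 0.163, limma). The chaperone HSPA5, the classical marker of endoplasmic reticulum stress, lay at 9.87, 9.99 and 9.96 at 8 h and 9.70 and 9.63 at 24 h, a difference of -0.28 that did not pass (adjusted p = 0.111, limma). SDF2L1, a cofactor of HSPA5, differed by -0.55 and did not pass either (adjusted p = 0.0555, limma). At the described positions this list had a median of 0.18.

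Of 10 measured targets of the antioxidant factor NRF2, 1 rose and 3 fell, with a median of -0.096, and at the described positions -0.087. The median was 0.001 without 24 h replicate 2 and -0.216 without 24 h replicate 1. The riser was the cystine carrier SLC7A11, also a target of ATF4, at 1.78-fold. The fallers were PIR, GCLM and SRXN1, by 0.45, 0.44 and 0.41 on the log2 scale, and all 3 calls were lost without 24 h replicate 2, with 1 left without 8 h replicate 3. HMOX1 and NQO1, the best known targets, differed by -0.09 and -0.10 and did not pass.

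Of 16 measured genes of the p53 pathway and growth arrest, 12 rose and 0 fell, and their median difference was 1.24. At the described positions the median was -0.68, of the opposite sign, with 0 calls. Without either array at 24 h the count was 10 of 14. CDKN1A and FAS are counted among the 12, although their probes passed the detection filter only through the 24 h arrays. CDKN1A, which encodes the cell cycle inhibitor p21, was not detected on any array at 8 h, where it lay at 4.32, 4.67 and 4.78, and was detected on both at 24 h, at 6.08 and 6.10. That is a rise of at least 2.36-fold, and no test is quoted for it because of how its probe passed the filter. The controls, at 4.42 and 4.64, were also not detected. MDM2, the ligase that degrades p53, rose 2.33-fold from a mean of 5.42 to 6.64.

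The largest rise on this list was that of SESN1, a p53-induced sestrin, from 6.06, 6.44 and 6.05 to 8.33 and 8.00 (3.96-fold). PHLDA3, an inhibitor of AKT, rose from 7.39, 7.49 and 7.55 to 9.28 and 9.17 (3.36-fold), and the RNA-binding protein ZMAT3 rose 3.32-fold. TP53INP1, a p53 cofactor, rose by 1.68 on the log2 scale. GADD45A, which joins stress signals to the cell cycle and to DNA repair, rose from 10.270, 10.451 and 10.362 to 12.135 and 12.001 (3.27-fold). For SESN1, PHLDA3, ZMAT3 and GADD45A both 24 h arrays lay above both controls. Among effectors, the death receptors TNFRSF10B and FAS rose, the former 1.97-fold and the latter at least 2.1-fold from undetected levels at 8 h. The repair gene XPC rose 2.19-fold, and RRM2B, the p53-induced subunit of ribonucleotide reductase, rose 2.4-fold. CDKN1B, TP53I3, PLK3 and GADD45B did not pass, with differences of 0.01, 0.16, 0.16 and 0.33.

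All 31 genes of the mitotic list were measured, and 21 fell and 0 rose, against 8.89% and 12.4% of all genes. Their median difference was -0.48, and 30 of 31 were lower on both 24 h arrays than on all 8 h arrays, a pattern found for 23.1% of all genes. At the described positions the median was 0.43, of the opposite sign, with 0 calls. Without single ciclopirox arrays 15 to 18 calls were left, and with no filter on dim probes 12. The list's deviation was 0.19, 0.15 and 0.26 at 8 h, -0.28 and -0.31 at 24 h, and 0.34 and 0.23 on the controls.

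CCNB1, cyclin B1, the partner of the mitotic kinase CDK1, fell from 8.75, 8.64 and 8.85 to 7.59 and 7.33, which is 2.44-fold lower (adjusted p = 0.000126, limma). The controls, at 8.87 and 8.67, were at the 8 h level. KIF20A, a motor of cell division, fell 2.0-fold from 10.87, 10.95 and 10.84 to 9.88 and 9.90, and the checkpoint kinase BUB1 1.99-fold. MKI67, the proliferation marker Ki-67, fell from 6.81, 6.98 and 6.48 to 5.87 and 5.71, and BIRC5, survivin, from 10.55, 10.58 and 10.78 to 9.66 and 9.75. The falls of AURKA and PLK1, both mitotic kinases, were 1.64- and 1.61-fold. CDK1 fell 1.38-fold, a call lost without any 1 ciclopirox array, and that of PLK1 was lost without 24 h replicate 1. TOP2A, TPX2, UBE2C and KIF2C did not pass, with differences of -0.28, -0.25, -0.20 and -0.21. Of the called falls on the list, that of CCNB1 was the one clearly above 2-fold.

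The MKI67 promoter is shown for the cell cycle genes homology region, TTTGAA on either strand, through which many mitotic genes are held down outside division. It lies at chr10:128126374-128126673 of GRCh38.p14 on the minus strand, with matches in capitals 47 and 29 bases before the RefSeq start.
MKI67: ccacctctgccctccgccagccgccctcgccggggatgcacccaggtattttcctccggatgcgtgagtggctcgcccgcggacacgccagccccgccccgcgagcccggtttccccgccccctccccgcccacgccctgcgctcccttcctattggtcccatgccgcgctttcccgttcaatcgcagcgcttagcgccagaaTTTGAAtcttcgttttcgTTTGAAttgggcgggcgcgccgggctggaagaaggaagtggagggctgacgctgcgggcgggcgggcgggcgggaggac
The letters occurred in a promoter of 16 of 25 genes of the list, of 18.2% of all genes and of 13.8% of tested genes.

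Of 31 measured genes of DNA replication, 12 fell and 0 rose, with a median of -0.29, and at the described positions the median was 0.31. The count fell to 7 without 24 h replicate 2, and to 6 with no filter on dim probes. GINS2, part of the replicative helicase, fell from 11.61, 11.69 and 11.73 to 11.05 and 10.84 (1.66-fold), and the helicase subunit MCM6 from 11.784, 11.793 and 11.856 to 11.177 and 11.004 (1.65-fold). SLBP, which binds histone messages, POLE2, a polymerase subunit, and the initiation factor MCM10 fell 1.56-, 1.53- and 1.51-fold. The subunits of the iron-dependent ribonucleotide reductase did not follow. RRM2 lay at 10.15, 10.24 and 10.25 at 8 h and at 10.38 and 10.19 at 24 h, a difference of 0.08 (adjusted p = 0.757, limma). RRM1 differed by 0.10.

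A pair of genes tied to the same phase stood among the 12 largest falls of all genes. E2F2, a transcription factor that drives entry into S phase, fell from 9.81, 9.91 and 9.85 to 8.33 and 8.39 (2.83-fold), with controls at 9.81 on both arrays. NASP, a histone chaperone, fell from 8.38, 8.39 and 8.45 to 7.12 on both arrays (2.44-fold). Of 9 measured replication-dependent histone genes, 2 rose and 0 fell, with a median of -0.026 that turned positive with median centring and was -0.066 at the described positions. The risers were H2AC6, at 2.52-fold, and H2AC18, at 2.0-fold, whose call was lost without 24 h replicate 2 (adjusted p = 0.0873, limma). H2BC5 differed by -0.46 and did not pass, and another probe of it had the opposite sign. H4C8 and H2BC11, not detected on any array at 8 h and detected on both at 24 h, did not pass either. Probes for histone genes of near-identical sequence can take signal from each other, so these 2 are uncertain as single genes.

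All 10 heat shock genes were measured and all 10 fell, where 8.89% of all genes fell. Their median difference was -0.60, and at the described positions it was -0.04. The count was 6 without 24 h replicate 2 and 7 without 24 h replicate 1 or 8 h replicate 2, and 5 with no filter on dim probes. The list's deviation was 0.46 and 0.41 on the controls, 0.23 to 0.28 at 8 h and -0.35 and -0.42 at 24 h, so levels stood in the order controls, 8 h, 24 h.

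HSPA1B, an inducible HSP70 chaperone, fell from 11.249, 11.226 and 10.997 to 9.358 and 9.392, which is 3.44-fold lower (adjusted p = 5.95e-06, limma). HSPA1A fell from 8.20, 8.23 and 8.32 to 5.67 and 6.42, which is 4.61-fold lower. The 2 genes encode nearly the same messenger RNA, so their probes may not tell them apart. HSPA8, the constitutive HSP70, fell from 13.82, 13.74 and 13.79 to 12.95 and 12.90 (1.82-fold), with controls at 13.78 and 13.79. The mitochondrial chaperonins HSPE1 and HSPD1 fell 1.73- and 1.25-fold, and the small heat shock protein HSPB1 fell 1.63-fold. The call of HSPB1 was lost without 24 h replicate 1 (difference -0.42, adjusted p = 0.116, limma). HSP90AA1, DNAJB1, HSPH1 and BAG3, a set of chaperones and co-chaperones, fell 1.39-, 1.34-, 1.41- and 1.41-fold. Of these and HSPD1, all but BAG3 lost their call without 24 h replicate 2, and HSPD1 also without either control or single arrays of both drugs. The call of HSPH1 was lost without any 1 ciclopirox array, and that of DNAJB1 also without 8 h replicate 2 or 24 h replicate 1. HSPB3, a muscle small heat shock protein outside the list, was detected on all 8 h arrays and on neither at 24 h, and fell by at least 2.51-fold.

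The HSPA8 promoter is shown for the heat shock element in the form GAANNTTC on either strand, a pair of the inverted units that the factor HSF1 binds. It lies at chr11:123062087-123062386 of GRCh38.p14 on the minus strand, with matches in capitals 230 and 50 bases before the RefSeq start.
HSPA8: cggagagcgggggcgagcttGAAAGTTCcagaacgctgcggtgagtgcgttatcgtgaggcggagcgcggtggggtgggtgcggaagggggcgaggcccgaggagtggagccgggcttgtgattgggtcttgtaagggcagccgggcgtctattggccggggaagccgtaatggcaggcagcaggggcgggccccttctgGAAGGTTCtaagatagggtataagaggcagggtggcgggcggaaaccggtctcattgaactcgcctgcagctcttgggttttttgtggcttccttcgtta
The letters occurred in a promoter of 7 of 10 genes of the list, of 8.21% of all genes and of 6.75% of tested genes.

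Of 12 measured genes of ribosome biogenesis and of hypusine formation, an iron-dependent modification of the translation factor EIF5A, 4 fell and 0 rose, with a median of -0.25, where the described positions gave 0.053, of the opposite sign. These were NOP56, NCL, DKC1 and NOLC1, which help process ribosomal RNA, with differences of -0.43, -0.36, -0.32 and -0.31. Leaving out any 1 ciclopirox array left at most 2 of these calls, and leaving out 8 h replicate 2 or 24 h replicate 2 left 0. PES1, another ribosome assembly factor, differed by -0.35 and DOHH, the iron enzyme of the hypusine step, by -0.55, and neither passed (adjusted p = 0.116 and 0.0658, limma).

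Among early response genes and feedback genes of MAP kinase signalling, 13 of 21 rose and 1 fell, with a median of 0.44, and at the described positions the median was -0.02. With no filter on dim probes 8 rose. FOS, a component of the AP-1 factor, rose from 6.01, 5.53 and 5.94 to 8.15 and 7.63 (4.18-fold), with controls at 6.03 and 6.14. EGR1, another immediate early transcription factor, rose from 8.94, 9.25 and 9.15 to 11.12 and 11.03 (3.9-fold), and its 8 h values lay below both controls, at 9.45 and 9.43. FOSB and JUNB rose 2.21- and 1.89-fold. JUN, their usual partner, differed by -0.20 and did not pass.

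Feedback phosphatases of the pathway rose as well. DUSP4 rose 1.9-fold from 6.09, 6.06 and 5.96 to 6.95 and 6.97, DUSP5 rose 1.61-fold and DUSP1 1.33-fold, the latter a call lost without either 24 h array or 8 h replicate 1 or 3. DUSP6, the ERK phosphatase, rose by 0.38, and its call was lost without 8 h replicate 2 or 3 or either 24 h array (highest adjusted p = 0.107, limma). The inhibitors SPRY2 and SPRY4 rose 1.35- and 1.46-fold, and the call of SPRY2 was lost without 24 h replicate 1. The single fall was that of CCND1, cyclin D1, which went from 13.40, 13.54 and 13.48 to 13.03 and 12.97, back to the level of the controls at 12.97 and 12.84. RPS6KA2, a kinase downstream of ERK, was not on the list and was among the 12 largest rises, from 6.67, 6.61 and 6.48 to 8.56 and 8.75 (4.21-fold).

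The cytokine list split. Of 8 measured genes, 5 rose and 1 fell, with a median of 0.77, and at the described positions the median was -0.29. IL24, a cytokine of the IL-10 family known from melanoma differentiation, rose from 7.50, 7.09 and 7.41 to 9.79 and 9.69 (5.29-fold). IL1A and IL1B, the interleukin-1 genes, rose 2.49- and 2.72-fold, the latter from 7.708, 7.266 and 7.536 to 9.003 and 8.896. CCL2, a chemokine that draws monocytes, fell from 8.004, 8.137 and 8.135 to 6.457 and 6.199 (3.4-fold), with controls higher still at 8.48 and 8.58. CXCL8, the neutrophil chemokine, differed by -0.45 and did not pass (adjusted p = 0.105, limma). TNFAIP3, an inhibitor of NF-kB, rose by at least 1.69-fold from undetected levels at 8 h, and the cytokine LIF rose 1.59-fold, a call lost without either 24 h array or 8 h replicate 1 or 2. TNFAIP3 is counted among the 5, although its probe passed the detection filter only through the 24 h arrays. Without either 24 h array 3 of 7 measured genes rose. Of 9 measured interferon response genes, 1 rose and 0 fell, where 12.4% of all genes rose and 8.89% fell. The share that rose was thus near that of all genes. The list's median of -0.072 turned positive with median centring and was -0.118 at the described positions. The riser was IRF7, by 0.40, and the call was lost without 8 h replicate 2 or 3, either 24 h array or either control.

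HIF targets did not move in 1 direction between the times. Of 26 measured, 4 rose and 6 fell, with a median of -0.088, which became -0.002 with median centring, and at the described positions the median was -0.043. On the level scale, the list's deviation was -0.46 on both controls and between -0.13 and 0.08 on the 5 ciclopirox arrays. The list thus stood above the controls on all arrays of both times, with no test, since no control carries a time. Without 24 h replicate 2 the count was 2 higher and 4 lower.

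The fallers were led by AK4, a mitochondrial adenylate kinase. It lay at 9.76, 9.68 and 9.77 at 8 h and at 8.65 and 8.62 at 24 h, 2.14-fold lower (adjusted p = 6.68e-05, limma), while the controls lay at 8.26 and 8.17. PFKFB4, a regulator of glycolysis, fell from 9.79, 9.68 and 9.82 to 8.54 and 8.88, and both 24 h arrays lay below both controls at 8.99 and 8.97. The glycolytic gene HK2 and the glucose carrier SLC2A1 fell 1.54- and 1.41-fold, and BNIP3, which marks mitochondria for removal, fell 1.41-fold from 12.11, 11.89 and 12.08 to 11.57 and 11.49. The call of HK2 was lost without 24 h replicate 2 (adjusted p = 0.077, limma), and that of BNIP3 without either 24 h array or 8 h replicate 1 or 3. The common glycolytic genes LDHA, PGK1 and ENO1 differed by -0.12, 0.17 and -0.08 and did not pass.

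The risers were VEGFA, STC2, DDIT4 and NDRG1. VEGFA, the vascular growth factor, rose from 7.62, 7.90 and 7.60 to 8.34 and 8.72 (1.77-fold, adjusted p = 0.01, limma), with controls at 7.093 and 6.998, and its call was lost without 24 h replicate 2 (adjusted p = 0.0782, limma). STC2, stanniocalcin 2, rose 2.06-fold from 7.31, 7.22 and 7.34 to 8.21 and 8.46. DDIT4, an mTORC1 inhibitor, rose 1.44-fold and NDRG1 1.37-fold, a call lost without 24 h replicate 2. VEGFA, STC2 and DDIT4 are known as targets of ATF4 as well as of HIF.

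The AK4 promoter is shown for the core of the hypoxia response element, ACGTG on either strand. It lies at chr1:65147302-65147601 of GRCh38.p14 on the plus strand. The capitals mark matches on both strands that overlap in 1 palindrome, starting 93 and 92 bases before the RefSeq start.
AK4: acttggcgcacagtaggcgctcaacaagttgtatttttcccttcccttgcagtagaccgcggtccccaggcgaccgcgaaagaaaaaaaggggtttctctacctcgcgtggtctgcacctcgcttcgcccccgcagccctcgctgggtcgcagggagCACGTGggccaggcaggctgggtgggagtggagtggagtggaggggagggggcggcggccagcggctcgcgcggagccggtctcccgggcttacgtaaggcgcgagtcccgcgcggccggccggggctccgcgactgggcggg
The letters occurred in a promoter of 16 of 23 genes of the list, of 24.9% of all genes and of 33.7% of tested genes.

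Of 16 genes that handle iron, 11 were measured, and TFRC, FTH1, SLC40A1, IREB2 and TFR2 were not. Of the 11, 0 rose and 1 fell, where 12.4% of all genes rose and 8.89% fell. The share that fell was thus near that of all genes. The faller was the ferrireductase STEAP3, by 0.50. That call was lost without any 1 of the 5 ciclopirox arrays (highest adjusted p = 0.169, limma). FTL, the ferritin light chain, lay at 13.65, 13.64 and 13.63 at 8 h and 13.82 and 13.81 at 24 h, a difference of 0.17 (adjusted p = 0.2, limma). Of 10 measured demethylases that use iron, KDM5B rose 1.65-fold and KDM2B fell 1.33-fold, and the call of KDM2B was lost without either 24 h array. The shares of demethylases that rose and that fell were near those of all genes. KDM3A and KDM2A differed by -0.57 and -0.28 and did not pass, and neither did TET1, which was not detected on the 24 h arrays. Of 11 measured genes of iron-sulfur proteins and the respiratory chain, NDUFV1 and ISCU rose 1.37- and 1.26-fold and CYCS fell 1.3-fold, while NDUFV2 differed by -0.22 and did not pass. Each of these 3 calls was lost without at least 1 array at 8 h. They were also lost without 24 h replicate 1, where the differences were 0.38, 0.38 and -0.37. The call of ISCU was lost without 24 h replicate 2 as well. That of CYCS was lost without any 1 ciclopirox array, and without crizotinib 8 h replicate 1 or 3. The median of the demethylases, -0.12, turned positive with median centring and was -0.14 at the described positions. That of the iron handling list was 0.085 and that of the iron-sulfur list 0.019, against -0.072 and -0.031, of the opposite sign, at the described positions.

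Of 11 measured sterol synthesis genes, 4 fell and 1 rose, with a median of -0.09 that turned positive with median centring, and at the described positions the median was -1.03 with 0 calls. HMGCS1, an early enzyme of cholesterol synthesis, fell from 9.55, 9.48 and 9.46 to 8.79 and 8.65 (1.72-fold, adjusted p = 0.000792, limma), with controls at 9.31 and 9.17. DHCR7, the last enzyme of the pathway, fell from 7.68, 7.94 and 7.71 to 7.04 and 7.01 (1.69-fold). LSS and MVD fell 1.4- and 1.58-fold and SC5D rose 1.34-fold. Without 24 h replicate 1 the calls of LSS, MVD and SC5D were lost (adjusted p = 0.0949, 0.153 and 0.185, limma), which left 2 falls. MVD and SC5D lost theirs also without at least 1 array at 8 h, and MVD without either control.

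Of 10 measured BCL2 family genes, which set the threshold for cell death, BAX rose 1.56-fold, and BCL2L11, encoding BIM, and BID fell 1.53- and 1.25-fold. The call of BAX was lost without 24 h replicate 2 (adjusted p = 0.135, limma) or 8 h replicate 3, and that of BCL2L11 without 24 h replicate 1 (adjusted p = 0.139, limma) or 8 h replicate 2. That of BID was lost without either control, 8 h replicate 1 or 3, or either 24 h array (highest adjusted p = 0.135, limma). The list's median was 0.16, and at the described positions 0.20. PMAIP1, MCL1 and HRK differed by 0.53, 0.39 and 1.03 and did not pass. In the melanocyte list 1 of 7 measured genes rose and 0 fell, where 12.4% of all genes rose and 8.89% fell. The share that rose was thus near that of all genes. The list's median of -0.113 turned to 0.113 with median centring of scanner signals and was 0.011 at the described positions. SOX10 rose from 11.03, 11.16 and 11.09 to 11.46 and 11.62 (1.36-fold), near the controls at 11.56 and 11.43, and the call was lost without 24 h replicate 2 (adjusted p = 0.0666, limma). MITF, the master regulator of the lineage, was near the detection limit and differed by -0.14 (adjusted p = 0.579, limma). GPNMB, a melanosomal glycoprotein, differed by -0.39 and did not pass (adjusted p = 0.128, limma).

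The remaining genes of the largest changes belonged to none of these groups. SPRR2D, a protein of the cornified envelope of skin, rose 5.39-fold from 5.685, 5.714 and 6.003 to 8.202 and 8.263, and has close copies in its gene cluster. ACTA2, smooth muscle actin, rose from 7.76, 7.88 and 7.81 to 9.80 and 9.95 (4.17-fold), and SYT1, a vesicle calcium sensor, rose from 5.33, 4.95 and 5.33 to 7.15 and 7.37. SUGCT, a metabolic enzyme, and BLOC1S2, a subunit of a complex that acts on lysosomes, rose 4.14- and 4.12-fold.

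ANKRD1, a target of the growth regulator YAP, fell from 7.98, 8.50 and 8.16 to 6.05 and 6.63 (3.66-fold), with controls in between at 7.47 and 7.03. The growth factor receptor FGFR3 fell 3.12-fold and MIX23, a mitochondrial protein, 3.05-fold. At 24 h FGFR3 was near the detection limit, at 5.07 and 4.98, and was detected on 1 of 2 arrays. RPPH1, the RNA of ribonuclease P, fell 3.59-fold, yet its 2 arrays at 24 h lay at 5.33 and 6.71, and the call was lost without 24 h replicate 1 (difference -1.16, adjusted p = 0.0872, limma). SNORD3C, a small nucleolar RNA with close copies, fell 2.43-fold.

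The same time step was measured for crizotinib on 5 other arrays of the series, and the difference between the drugs in their 24 h minus 8 h change was tested in the same fit. It passed for 934 of 14884 probes (6.28%), 527 higher and 407 lower in ciclopirox. The lists of the stress response and of sterol synthesis held the most genes by share that passed it. Of 18 stress response genes detected at each time in both drugs, 16 had a higher change in ciclopirox, and the medians over the whole list were 1.24 and 0.018 in crizotinib. Detected here means on at least 1 array of each group. For DDIT3 the changes were 2.37 and 0.84 (difference 1.53 ± 0.13, SE, adjusted p = 0.000208, limma). For ASNS they were 1.38 and -0.30. GDF15 rose in both drugs, by 4.61 and 3.09. Of 14 p53 list genes detected at each time in both drugs, 2 had a higher and 1 a lower change in ciclopirox, and both medians over the whole list were 1.24. CDKN1A was not detected at 8 h in either drug, so its changes are not set against each other.

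Sterol genes went apart between the drugs. Of 11, 9 had a lower change in ciclopirox, where the median was -0.09 against 1.38 in crizotinib. HMGCS1 changed by -0.78 and 1.86 (difference -2.64 ± 0.15, SE, adjusted p = 2.89e-05, limma). Of 10 heat shock genes 3 had a lower change in ciclopirox, namely HSPA1A, HSPA1B and HSPA8, and the medians were -0.60 and -0.15. Of 31 mitotic genes 21 fell in ciclopirox and 29 in crizotinib, with medians of -0.48 and -0.90, and 9 had a smaller fall in ciclopirox by the test. RRM2, which did not pass in ciclopirox, fell by 1.33 in crizotinib, and the difference of 1.40 passed (adjusted p = 0.00315, limma). Of the HIF targets, 3 had a higher change in ciclopirox, among them VEGFA and STC2, and 6 a lower one, among them AK4 and PFKFB4.

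**Figure D4:**
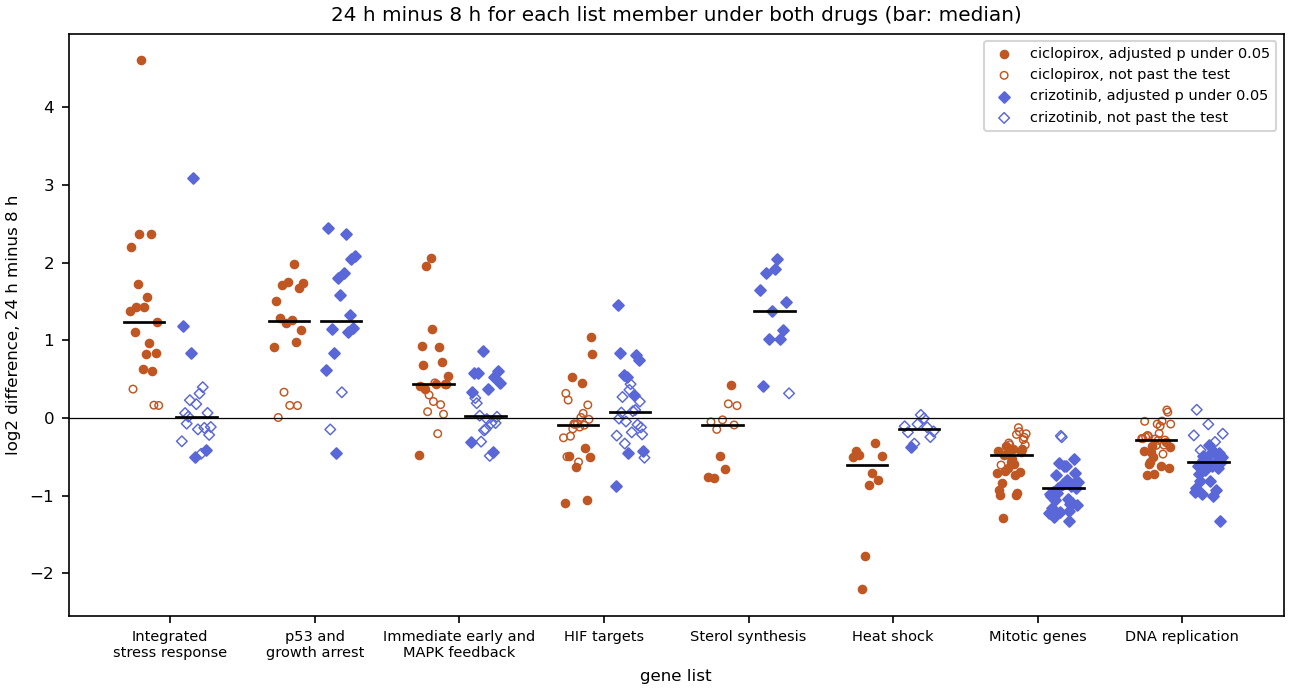
Log2 difference between 24 h and 8 h for each measured member of 8 gene lists, in ciclopirox (circles) and in crizotinib (diamonds), with filled symbols for an adjusted p under 0.05 and black bars for medians. The stress response list is high in ciclopirox alone apart from a few genes, the p53 list is high in both drugs, the sterol list is high in crizotinib, and the mitotic and replication lists are low in both.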

How the data were processed

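WM35 cells were profiled on 12 Illumina expression BeadChip arrays. Per the file headers, one deposited table holds, for 47230 probes at each chip position, the bead-averaged signal intensity with its detection p-value, and the submitters' processing notes name GenomeStudio. The authors also deposited processed intensity values under each sample's record for 38223 probes, and how these were normalized is not stated in the labels. Those processed values, taken to log2, correlated at 0.997 to 0.998 with neqc values of the matched scanner arrays, so the scale was taken as linear, normalized intensity. No per-sample column was left unused (0 columns).

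The analysis had been laid out for scanner signals at the positions in the sample descriptions, normalized with neqc (offset 16). After the 2 tables proved to disagree on the arrays, the values under each sample's record became the main input, and neqc on the matched arrays and on the described positions became added alternatives, chosen after seeing the data. Detection p-values were carried over from the matched scanner array. Probes with a detection p-value under 0.01 on at least 2 of the 5 ciclopirox arrays were kept, which left 14884, and 1689 further probes that passed in the scanner table have no processed value.

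limma 3.58.1 in R 4.3.3 fitted 1 mean per title over all 12 arrays, with 7 residual degrees of freedom, and eBayes. The contrasts were ciclopirox 24 h minus 8 h and its difference from that of crizotinib, with Benjamini-Hochberg adjustment over all probes kept and a threshold of 0.05. A control difference was not tested, as no control carries a time. All p-values quoted as adjusted come from limma, and the fit was tested on simulated data. Same-numbered arrays deviated together at r of 0.139 and 0.164 over 2 pairs, too few to call the numbers a pairing, so the replicate block was an alternative only.

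Gene names came from the platform annotation supplied with the data, which gives 27004 probes 1 symbol and 4 probes several, with 11215 deposited probes unnamed here. Per gene the kept probe with the highest mean was used, and 608 of 2201 genes with several kept probes had probes of opposite sign, among them ATF4, CDKN1B and H2BC5. The genes named are the 12 largest differences each way without overlap between the times, up to 5 members of each of 19 lists by size, and fixed genes such as CDKN1A, and members outside that rule are given to describe their list. Members and lists were chosen with earlier results of these data known, so lists carry counts and medians and no p. A gene undetected on all arrays of the lower group has only a bound, written "at least", against the lowest detected signal of each array. Such a gene passed the detection filter only through its higher group. Its call and its place in a list count therefore carry no support of their own. Promoters are from RefSeq on GRCh38.p14, 250 bases before to 50 after the start, and both strands were searched. A gene was counted if any of its promoters held the motif, and the promoter shown is the first listed with a match. The number of arrays limits the precision. Alternatives covered the dim-probe filter, the input values, the normalization, the arrays fitted, array weights, a trended and robust eBayes, the replicate block and each array left out.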

Additional observations from a re-analysis of the deposited data

Results flagged for a closer look

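For 38 of 101 named genes, counting those detected at each time in both drugs, the test of the difference between ciclopirox and crizotinib in the 24 h minus 8 h change passed an adjusted p of 0.05 in limma. Many of these genes were named for a large change in ciclopirox, which is a term of this test, so the count is not read against that of all probes. Their adjusted p-values ran from 2.89e-05 for HMGCS1 to 0.0495 for HSPA5. Each value below is the change in ciclopirox minus that in crizotinib, on the log2 scale, and neither drug's 24 h arrays can be told apart from their chip positions.

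Among stress response genes the difference was 1.52 for GDF15, 1.98 for SESN2, 1.53 for DDIT3, 1.01 for ATF3 and 1.499 for CTH. At 8 h GDF15 was detected on 2 of 3 ciclopirox arrays and SESN2 on 1 of 3 crizotinib arrays. These 8 h levels were thus near the detection limit. For XBP1 it was 1.18, for the chaperone HSPA5 0.60 and for the cystine carrier SLC7A11 0.77. The early response genes followed, with 1.204 for FOS, 1.31 for FOSB, 1.38 for EGR1, 0.98 for JUNB and 1.62 for the kinase RPS6KA2. Among genes outside the lists SPRR2D differed by 1.97 and SYT1 by 1.51. RRM2 differed by 1.40, GADD45A by 0.87 and the interferon factor IRF7 by 0.68. The HIF targets split, with 1.47 for STC2 and 1.33 for VEGFA but -0.87 for AK4 and -1.80 for PFKFB4.

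The change was lower in ciclopirox for sterol genes, at -2.64 for HMGCS1, -2.40 for DHCR7, -2.71 for MVD, -1.87 for LSS and -0.71 for SC5D. For chaperones it was -1.88 for HSPA1A, -1.70 for HSPA1B and -0.90 for HSPA8. Cytokines were lower too, at -1.10 for IL1B, -0.91 for IL1A, -1.11 for CCL2 and -1.08 for CXCL8. ACTA2 stood at -0.87, the lysosomal glycoprotein GPNMB at -1.74, the ferrireductase STEAP3 at -0.97 and PIR at -1.09.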

How the results depend on the processing

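The assignment of arrays to titles decided the result. Scanner signals at the chip positions in the descriptions gave 0 calls (0.0%), 2513 probes at an unadjusted p under 0.05 against 4991, and 84 probes at least 2-fold different against 219. There some named genes that had not passed changed sign, among them SDF2L1 (-0.55 to 0.60) and HSPA5 (-0.28 to 0.59). Of the 83 named genes called above, 58 turned their direction, with none of them called at the described positions. Among genes that were higher at 24 h the differences became -1.23 for GDF15, -1.67 for IL24, -0.044 for SESN2, -0.26 for DDIT3, -0.40 for ATF3, -0.29 for FOS, -1.46 for ACTA2, -0.057 for SYT1, -1.06 for SUGCT, -0.52 for BLOC1S2, -0.28 for KDM5B, -0.25 for NDUFV1, -0.27 for ISCU, -0.21 for DNAJB9, -0.26 for EDEM1, -0.009 for SLC7A11, -1.29 for SESN1, -0.81 for PHLDA3, -1.23 for ZMAT3, -0.39 for GADD45A, -1.06 for TP53INP1, -0.81 for H2AC6, -0.048 for EGR1, -0.44 for DUSP4, -1.29 for IL1B, -1.10 for IL1A, -0.86 for SC5D, -0.59 for BAX, -0.24 for SOX10 and -1.35 for CDKN1A. Among genes that were lower they became 0.13 for HSPA1A, 0.74 for ANKRD1, 1.18 for RPPH1, 0.36 for FGFR3, 0.55 for MIX23, 0.87 for E2F2, 0.29 for CCNB1, 0.45 for NASP, 0.54 for SNORD3C, 0.28 for AK4, 0.20 for HK2, 0.20 for KDM2B, 0.13 for CYCS, 0.29 for GCLM, 0.049 for SRXN1, 0.38 for KIF20A, 0.43 for BUB1, 0.41 for MKI67, 0.52 for BIRC5, 0.32 for GINS2, 0.15 for MCM6, 0.24 for SLBP, 0.54 for POLE2, 0.43 for MCM10, 0.008 for HSPE1, 0.15 for HSPB1, 0.21 for DKC1 and 0.56 for BCL2L11.

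With the assignment kept, none of the named genes that were called turned its direction under the other settings tried. The 2866 calls became 1167 with no filter on dim probes, which tests more probes, and 1800 with only the 5 ciclopirox arrays in the fit. With single arrays left out they ranged from 1319 to 2890, the count at an unadjusted p under 0.05 from 3847 to 5096 and the count at 2-fold from 219 to 336. Without 8 h replicate 3 together with 24 h replicate 1 or 2, they were 814 and 1197, and the 2-fold count without 8 h replicate 3 and 24 h replicate 2 was 377. A normexp offset of 50 left 97 probes at 2-fold. With replicate number as a block 2304 were called, as an alternative only, since 2 pairs do not show that numbers pair the arrays. The filter on all 5 arrays, the filter over 12 arrays, neqc of the matched scanner arrays, an offset of 50, normalization of 5 arrays alone, array weights, trended and robust eBayes, and median centring gave 2908, 2622, 3415, 3732, 2199, 2281, 3320 and 2930 calls. Median centring of scanner signals gave 3397, of which 2683 were higher and 714 lower. Of 83 named genes called, 25 lost the call without at least 1 array. Probes near background have the least precise differences, and the signals were not tested for saturation.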
